A study of Saccharomyces cerevisiae with 24 samples.

Results

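The genes described here encode the proteins of the small (40S) ribosomal subunit of the budding yeast Saccharomyces cerevisiae. They were taken by name, as every row of the expression table whose gene name is RPS followed by digits and an optional A or B, which gave 56 of 8009 rows. The name chose the genes, so no measured value entered the choice. The 56 genes form 24 pairs of duplicated copies, an A and a B copy each, and 8 single-copy genes (such as RPS2, RPS3, RPS15 and RPS20). All 56 passed the filter on low values, which asked for at least 1 TPM in at least 3 libraries and left 6449 features of the table.

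RNA was measured by sequencing of poly(A)-selected, strand-specific libraries in 24 cultures. They form 8 groups of 3 biological replicates, with 4 genotypes sampled in exponential growth (log phase) and after 48 h of culture, in starvation, a late state the labels also call stationary. The genotypes were WT (strain JPY10H3), hsh49::Q24P (JPY2863), nam8D (JPY28H5) and mud1D (JPY28A8), where D stands for a deletion. All are of the BY background and grew in synthetic medium with 2% glucose, histidine, leucine, uracil and lysine, and each genotype is represented by a single strain. Hsh49 belongs to the U2 snRNP and Nam8 and Mud1 to the U1 snRNP, the particles that recognise introns at the start of splicing. The comparisons set each starved group against its own log phase, and each mutant against WT within a growth state.

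The 40S subunit binds mRNA and the initiation factors and holds the decoding centre, where codons meet tRNA anticodons. Ribosomal protein genes are among the most highly transcribed genes of growing yeast. They are repressed together when growth stops and nutrient signals through TOR and protein kinase A fall. Many of them carry an intron, which makes them a large part of the load of the yeast splicing machinery. After an ancient genome duplication most were kept as a pair of copies that encode the same or nearly the same protein, so that a cell can change which copy supplies the protein.

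Of the 56 genes, 36 have an intron within the coding region and 20 have none. In 17 pairs both copies have an intron and in 6 pairs neither has. The exception is RPS22, which encodes protein uS8: within the coding region RPS22A has no intron and RPS22B has 1. Introns outside the coding regions were not counted. An intron is recognised at its first bases, the 5′ splice site that pairs with the U1 snRNA, and at the branch site near its end, which pairs with the U2 snRNA. The 5′ splice site was GTATGT in 24 of the 36 introns (66.7%, against 73% of 281 introns between coding exons in the annotation), GTACGT in 9 and GTATGA in 3. The branch site was TACTAAC in 33 of 36 (91.7%, against 82.6% of the 281), and RPS9A, RPS9B and RPS21A have another first base. The introns of the 3 pairs in which the mutants and WT are compared most closely below are shown with the 5′ splice site or the branch site in capitals, 5′ to 3′ on the coding strand. They are from the RefSeq reference sequence of strain S288C (R64), matched by gene identifier, because the table gives no coordinates and its build is not given in the sources used here.
RPS22B intron start, chrXII:856575-856594 (+): GTATGTtccaactatttttc
RPS22B branch site, chrXII:857027-857049 (+): tcttcaaTACTAACatttactcc
RPS9A intron start, chrXVI:404957-404976 (+): GTACGTcgttaatcttctcc
RPS9A branch site, chrXVI:405417-405439 (+): gagcgctCACTAACaatggttgt
RPS9B intron start, chrII:604515-604534 (+): GTACGTattagactatatcg
RPS9B branch site, chrII:604884-604906 (+): aacttttGACTAACaagaatcca
RPS14A intron start, chrIII:178194-178213 (-): GTATGTttaatcacatagtg
RPS14A branch site, chrIII:177946-177968 (-): ttttggaTACTAACaacattacg
RPS14B intron start, chrX:73797-73816 (+): GTACGTgaaaggggtgatat
RPS14B branch site, chrX:74167-74189 (+): ttctgttTACTAACaactatacc

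These introns are 483 bp (RPS22B), 501 bp (RPS9A), 413 bp (RPS9B), 307 bp (RPS14A) and 408 bp (RPS14B) long. Both RPS9 copies, which encode the protein uS4, known for its part in decoding fidelity, depart from the most common letters at both sites. RPS14A has the most common letters at both, and RPS14B departs at the 5′ splice site. The table has 1 value per gene, and whether reads inside introns were counted is not given in the sources used here, so spliced and unspliced RNA cannot be told apart. The copies of a pair share between 84.3% (RPS27) and 99.2% (RPS6) of their aligned coding bases, with a median of 92.7%. The deposited values are labelled coco TPM. How reads that match both copies were treated is not stated beyond that label. The split is thus uncertain for the closest pairs, such as RPS6, RPS4 (98.1%) and RPS24 (97.1%). RPS22 (89.6%), RPS9 (90.9%) and RPS14 (92.1%) are less alike.

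Values are TPM, a transcript abundance scaled to the length of a gene and to the library total. The totals of the libraries lay between 999639 and 999881, the depth behind them is unknown, and a lower TPM cannot be told apart as less RNA of that gene per cell or more of the other RNAs. Differences are on the log2(TPM + 1) scale with their standard error (SE), adjusted p-values are limma's after Benjamini-Hochberg adjustment over the 6449 features, and a gene was called where that p was under 0.05 and the difference reached 1. The labels were checked on the targeted genes. NAM8 stood at 0.188 ± 0.12 TPM in nam8D log phase against 29 ± 2.73 in WT, and MUD1 at 2.91 ± 1.63 in mud1D log phase against 38.1 ± 1.73 in WT (SD, n = 3). HSH49, which carries a point mutation, stood at 45.5 ± 1.68 TPM in hsh49::Q24P log phase and 38.8 ± 2.96 in WT, which does not check that label. The 3 hsh49::Q24P log libraries stand apart in LEU2, a leucine synthesis gene often used as a strain marker, at 465.5, 117.6 and 63 TPM, while WT log phase had 5191 ± 698 TPM and starved hsh49::Q24P 0.925 ± 0.152 TPM. LEU2 was also near 0 in nam8D and mud1D (14.5 ± 14.5 and 3.37 ± 1.38 TPM in log phase), so WT differs from all 3 mutants in LEU2 RNA as well as in the named allele, and the allele and other differences between the strains cannot be told apart.

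In log-phase WT cells the 56 genes held 12 ± 0.307% of all TPM (SD, n = 3), beside 15.9% in the 76 large subunit protein genes named by the same pattern. The mutants held 11.5 ± 0.525%, 11.3 ± 0.0174% and 11.7 ± 0.178% in hsh49::Q24P, nam8D and mud1D in log phase, and all nam8D libraries lay below those of WT. In starvation the share was 4.74 ± 0.388% in WT, and 4.49 ± 0.462%, 5.86 ± 0.358% and 4.33 ± 0.709% in hsh49::Q24P, nam8D and mud1D. Every starvation library was below every log-phase library, and the 3 nam8D starvation libraries (6.27, 5.65 and 5.65%) were above all other starvation libraries. The share was not tested.

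**Figure D1:**
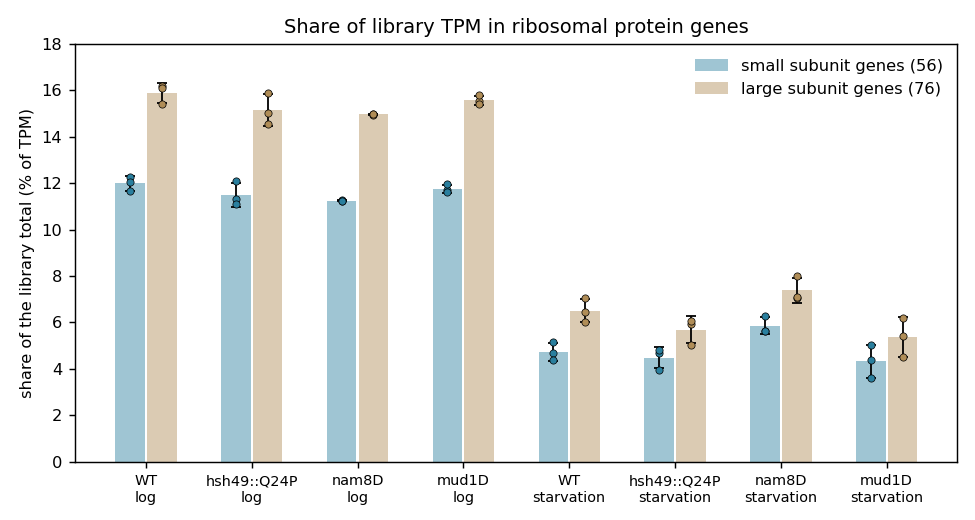
Share of each library's TPM in small subunit (56) and large subunit (76) protein genes, in percent, for the 8 groups; bars are means of 3 libraries, error bars the SD and points the libraries. The small subunit share lies at 11.3 to 12% in log phase and at 4.33 to 5.86% in starvation.

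Single genes of this family differed widely in level although the subunit holds 1 copy of each protein. In WT log phase the mean TPM ran from 162.4 to 7738 with a median of 1926, a span of 47.6-fold. RPS31, whose product is made as a fusion with ubiquitin, was highest with 8040, 7806 and 7367 TPM, followed by RPS12 (5277, 5255 and 4951 TPM) and RPS20 (5054, 4825 and 4638 TPM). All of these are single-copy genes. The lowest were RPS28B, at 173.1, 153.1 and 161.2 TPM, RPS9A, at 177.3, 192.2 and 191 TPM, and RPS14B, at 212.8, 212.3 and 205.1 TPM, each the minor copy of a pair. RPS12 and RPS20 overlapped between libraries, and the order of the other 4 did not rest on a test. In starvation the span was 27.9-fold in WT, and 24.9-fold, 14.5-fold and 27.9-fold in hsh49::Q24P, nam8D and mud1D. The median coefficient of variation between replicates was 3.45% in WT log phase and 17.8% in mud1D starvation, so the starved groups were measured less precisely. The SE and p-values given here rest on 1 spread per gene shared by all groups and do not follow this difference. They can thus be too small for starved groups and too large for log phase.

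Most of the family stood lower in starvation than in log phase in every genotype. In WT, 54 of 56 genes passed the adjusted threshold at a lower level (22.1% of all tested features did) and 45 were called lower (9.01%), while 2 passed at a higher level (58.7%) and none was called higher (26.2%). In hsh49::Q24P 50 passed lower (28.2%) with 39 called (14.1%), and 2 passed higher (53.3%) with 1 called (28.5%). In nam8D 49 passed lower (24.7%) with 23 called (10.3%), and 3 passed higher (55.4%) with 2 called (27.4%). In mud1D 52 passed lower (28.7%) with 41 called (14.9%), and 2 passed higher (52.2%) with 1 called (28.2%). The median of the 56 genes was -1.28 in WT, and -1.26, -0.82 and -1.31 in hsh49::Q24P, nam8D and mud1D, against 0.471, 0.386, 0.43 and 0.358 for the median feature, so that relative to it the family stood at -1.75, -1.65, -1.25 and -1.67. The 76 large subunit genes had 64, 58, 36 and 66 called lower in the same order and none higher. In nam8D, the count of small subunit genes called lower rests on the scaling, with 13 under quantile normalization, 40 with each library centred on its median feature and 51 after scaling to the spike-in RNAs. That scaling takes their amounts as equal, which the labels do not mention.

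The single-copy genes had lower medians than the family, at -1.53 in WT, and -2.07, -1.37 and -2.12 in hsh49::Q24P, nam8D and mud1D. Genes with an intron in the coding region had medians of -1.24, -1.14, -0.71 and -1.25 and those without one there -1.39, -1.46, -1.04 and -1.54. The 9 genes with the GTACGT splice site stood at -0.92, -0.58, -0.39 and -0.81, with RPS14B at one end and RPS9B at the other. The 24 genes with GTATGT stood at -1.24, -1.14, -0.71 and -1.25. The medians of the 3 genes with GTATGA lay below those of the family in every genotype, so the classes that depart from GTATGT did not go 1 way. These are descriptions of classes that overlap, and the differences between them were not tested. In all 4 genotypes 23 genes were called lower, among them 7 of the 8 single-copy genes, all but RPS15. How many of all features were called lower in all 4 was not taken, so this count is a description only.

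RPS22A, the copy of the pair without an intron in its coding region, fell most in every genotype. It stood at 1711, 1624 and 1652 TPM in WT log phase and at 250.3, 218.4 and 308.7 TPM in WT starvation, a difference of -2.69 ± 0.167 (SE; limma adjusted p = 1.07e-11). In starved hsh49::Q24P it was at 114.1, 92.7 and 82.2 TPM and in starved mud1D at 67.1, 86 and 107 TPM, differences of -4.22 and -4.28 from their own log phase. In starved nam8D it was at 281.5, 173.7 and 183.7 TPM, which overlaps WT, a difference of -2.98. The log-phase and starvation libraries did not overlap in any genotype.

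RPS2, the single-copy gene of protein uS5 near the entry of the mRNA channel, was among the 5 largest falls in every genotype. It fell from 4277 ± 95.9 to 977.7 ± 90.6 TPM in WT (SD, n = 3; -2.13 ± 0.1, limma adjusted p = 1.55e-13), and its differences were -2.59, -2.06 and -2.72 in hsh49::Q24P, nam8D and mud1D. RPS9B fell from 2758 ± 32 to 685.3 ± 70.8 TPM in WT (-2.01 ± 0.117), and the mutants differed by -2.46, -2.08 and -2.78. RPS26B, a copy of the gene for protein eS26 at the mRNA exit, fell from 2045 ± 151 to 443.4 ± 59.2 TPM (-2.21 ± 0.139), and the mutants differed by -2.29, -1.95 and -2.93. RPS20, of the head protein uS10, was among the 5 largest falls in hsh49::Q24P (-2.19) and mud1D (-2.43), and RPS13, of protein uS15, in nam8D (-1.53).

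A few genes went the other way or fell little. RPS14B, whose splicing is known to be repressed by its own protein uS11, went from 212.8, 212.3 and 205.1 TPM to 269, 261.3 and 304.4 TPM in WT, and to 398.6, 522.9 and 388.4 TPM in starved hsh49::Q24P from 210.7, 194.5 and 192.4 TPM. In nam8D it went from a mean of 175.2 ± 3.28 to 516.4 ± 48.6 TPM and in mud1D from 178.2 ± 7.68 to 429.8 ± 60.3 TPM (SD, n = 3). The rise was 0.40 ± 0.104 in WT, and 1.12, 1.55 and 1.26 in hsh49::Q24P, nam8D and mud1D (limma adjusted p of 0.00155, 4.07e-09, 2.82e-11 and 6.22e-10), but in WT it turned to -0.0771 with median centring and to -0.00116 with quantile normalization, and with spike-in scaling it was 0.10 in WT, and -0.00127, 0.47 and 0.38 in hsh49::Q24P, nam8D and mud1D. Its partner RPS14A fell in all 4 genotypes, by 1.15, 0.82, 0.69 and 0.91.

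RPS28B, the minor of the RPS28 copies, whose RNA is known to be destabilised by its own protein eS28, stood at 173.1, 153.1 and 161.2 TPM in WT log phase and at 235.3, 230.6 and 292.1 TPM in WT starvation. Its difference was 0.63 ± 0.174 in WT, and 0.57, 1.21 and 0.50 in hsh49::Q24P, nam8D and mud1D (limma adjusted p of 0.00269, 0.00556, 2.4e-06 and 0.0131). With median centring it was 0.15, 0.23, 0.79 and 0.16, and with spike-in scaling it turned to -0.55 in hsh49::Q24P and -0.38 in mud1D, so its direction rests on the scaling in those 2 mutants. In WT it stayed above 0 with median centring, quantile normalization and spike-in scaling (0.15, 0.22 and 0.33) but did not pass, and in nam8D it was 0.13 with spike-in scaling, which did not pass. In hsh49::Q24P and mud1D the starvation libraries (263.4, 263.3 and 173.5, and 167.9, 230 and 280 TPM) overlapped those of log phase. The mud1D value lost the adjusted threshold without mud1D log replicate 2 (0.42) or starvation replicate 3 (0.33). RPS30A had the smallest fall in WT, -0.37 ± 0.0909, and it turned to 0.20 with quantile normalization.

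RPS9A fell in WT and rose in nam8D. In WT it went from 177.3, 192.2 and 191 TPM to 92.5, 100.8 and 102.1 TPM, a fall of -0.92 ± 0.166 (limma adjusted p = 4.09e-05). In nam8D it went from 183.6, 162.9 and 176.4 TPM to 398.4, 280.4 and 280.4 TPM, a rise of 0.85 ± 0.166 (adjusted p = 9.12e-05) without overlap, which turned to -0.23 with spike-in scaling. In hsh49::Q24P and mud1D the libraries of both states overlapped, and the differences of -0.36 and 0.09 did not pass (adjusted p of 0.0527 and 0.625).

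**Figure D2:**
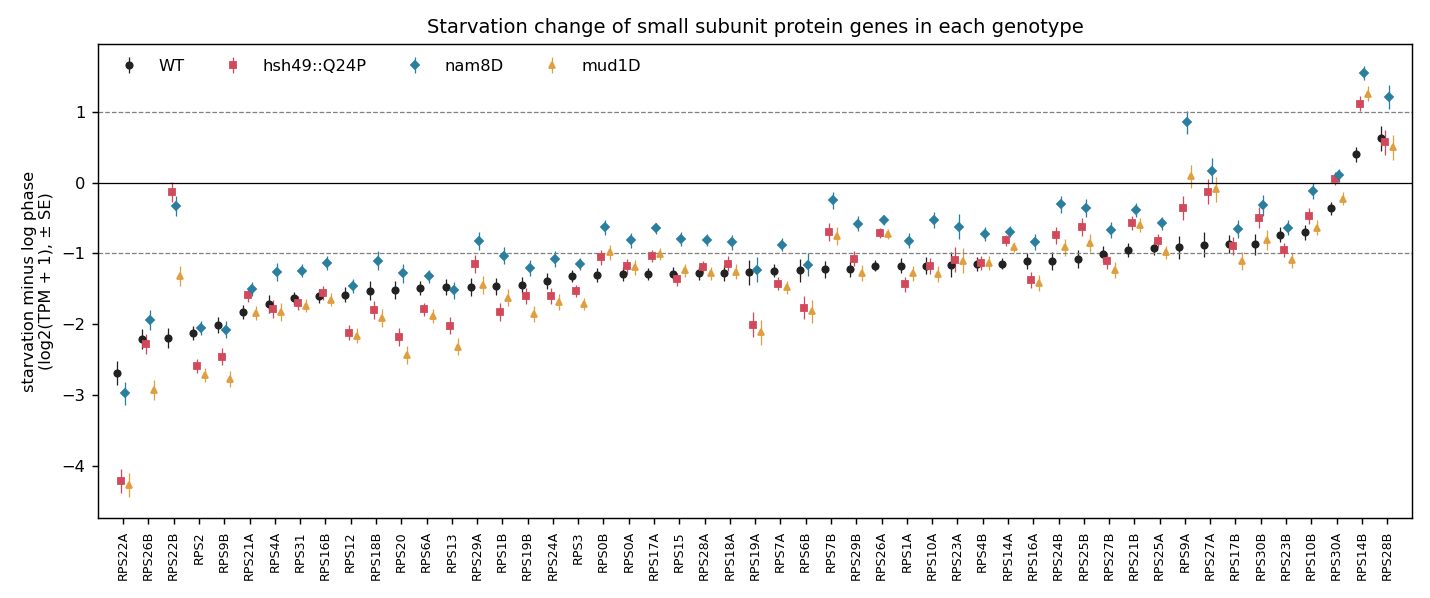
Difference between starvation and log phase of 51 of the 56 genes, on the log2(TPM + 1) scale, in WT, hsh49::Q24P, nam8D and mud1D; points are fitted differences, bars their SE, and genes are ordered by the WT value. Most genes lie below 0, from RPS22A at -2.69 in WT to RPS28B at 0.63, and the RPS22B points of hsh49::Q24P (-0.13) and nam8D (-0.33) lie far above that of WT (-2.19).

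In log phase few genes of the family passed the test in a mutant. In hsh49::Q24P 1 of 56 genes passed at a lower level (0.264% of features) and none at a higher level (0.202%), in nam8D none passed lower (0.14%) or higher (0.155%), and in mud1D none passed lower (0.372%) or higher (0.543%), all in limma. At an unadjusted p under 0.05 there were 6, 4 and 1 genes, and in a fit of only the groups compared 3, 12 and 0 passed. The shares of all features passing in these ways were not taken, so these counts are not read as a result about the family. The medians of the family were -0.0616, -0.0905 and -0.0468, and 42, 54 and 38 of the 56 differences were below 0, while the median feature stood at 0.0282, -0.001 and 0.0311.

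The gene that passed was RPS22B. The WT libraries stood at 441.3, 405.5 and 382 TPM and those of hsh49::Q24P at 243.8, 199.3 and 202 TPM, a difference of -0.93 ± 0.141 (limma adjusted p = 0.00113), and the 2 groups did not overlap. In nam8D it was at 319.9, 340.4 and 326.2 TPM, below all WT libraries but not past the threshold, and in mud1D at 397.6, 389 and 382.8 TPM, within the WT range. Without the 2 hsh49::Q24P log libraries richest in LEU2 RNA the difference was -1.01 with an adjusted p of 0.0599, where the remaining library is assumed to vary like the other groups, and with spike-in scaling it was -0.54 with an adjusted p of 0.144. The library with most LEU2 RNA had the highest RPS22B level of the 3, and the part of what sets these libraries apart in the result was not tested.

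The next by p in hsh49::Q24P log phase, chosen after their values were seen, did not pass. RPS26B stood at 1472, 1289 and 1309 TPM against 2125, 2139 and 1872 in WT (-0.59 ± 0.139, limma adjusted p = 0.0821). RPS9A stood at 349, 265.6 and 298.8 TPM against 177.3, 192.2 and 191 in WT (0.69 ± 0.166, adjusted p = 0.0888). Neither overlapped WT.

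In starvation genes of this family passed in both directions against WT in hsh49::Q24P and mud1D, and in nam8D at a higher level only. The 3 comparisons share the WT libraries. In starved hsh49::Q24P 11 genes passed at a higher level than in WT (25.1% of features) and 18 at a lower level (35.1%), with 2 called higher (3.94%) and 1 called lower (7.41%). In starved mud1D 8 passed higher (27.6%) and 21 lower (37%), with none called higher (4.57%) and 1 called lower (8.87%). In starved nam8D 36 passed higher (27.8%) and none lower (32.2%), with 2 called higher (4.39%) and none lower (7.86%), and 0 were lower at an unadjusted p under 0.05 in limma. The shares of the 56 genes lay near or below those over all features in hsh49::Q24P and mud1D, and that of the genes passing higher in nam8D lay above. The medians were -0.069, -0.0972 and 0.338 in hsh49::Q24P, mud1D and nam8D. With median centring 13, 10 and 36 genes passed higher and 11, 15 and 0 lower in the same order. With spike-in scaling 2, 3 and 2 passed higher and 26, 15 and 2 lower, and the median in nam8D turned to -0.089. Under that scaling the median feature in nam8D stood at -0.42, and the family 0.333 above it. That distance was 0.37 without scaling and with median centring, and 0.346 with quantile normalization. The sign of the nam8D median thus rests on the scaling, while the family stood above the median feature under each. For the large subunit genes 3, 1 and 31 of 76 passed higher and 31, 44 and 8 lower, in the same order.

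RPS22B was higher in all 3 starved mutants. It stood at 80.3, 87.3 and 99.8 TPM in starved WT, at 215.3, 201 and 171.8 TPM in hsh49::Q24P, at 336.8, 233.3 and 228.1 TPM in nam8D and at 125, 160.1 and 185.8 TPM in mud1D. No mutant library reached down to the WT libraries. The differences were 1.13 ± 0.141, 1.55 ± 0.141 and 0.80 ± 0.141 (limma adjusted p of 1.24e-06, 2.07e-08 and 6.69e-05). Against their own log phase, RPS22B fell by 2.19 in WT and by 1.33 in mud1D, while in hsh49::Q24P the difference was -0.13 (adjusted p = 0.392). In nam8D it was -0.33 (adjusted p = 0.0398), which missed the threshold without nam8D starvation replicate 2 (-0.25) or 3 (-0.23), or without log replicate 1, 2 or 3 (-0.35, -0.30 and -0.33).

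RPS9A, the minor RPS9 copy, was the other gene called higher in hsh49::Q24P and nam8D. It stood at 92.5, 100.8 and 102.1 TPM in starved WT, at 232.5, 278.5 and 202.3 TPM in hsh49::Q24P, at 398.4, 280.4 and 280.4 TPM in nam8D and at 154.8, 195.9 and 241.9 TPM in mud1D. The differences were 1.25 ± 0.166, 1.67 ± 0.166 and 0.97 ± 0.166 (limma adjusted p of 2.41e-06, 6.15e-08 and 4.1e-05), with no overlap. RPS14B was higher by 0.64, 0.89 and 0.62 (adjusted p of 2.86e-05, 5.5e-07 and 3.6e-05) and under the change called, and its values with spike-in scaling, 0.21, 0.46 and 0.40, did not pass.

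Among the other genes that passed higher in each mutant, RPS26A was higher by 0.40, 0.59 and 0.41 in hsh49::Q24P, nam8D and mud1D. With spike-in scaling these values were -0.0294, 0.16 and 0.19, and none passed. RPS27A, a copy of the gene for the zinc-finger protein eS27, was higher by 0.75 in hsh49::Q24P and 0.84 in mud1D. In starved hsh49::Q24P it stood at 431.4, 781.1 and 424.9 TPM against 293.6, 293.7 and 345.8 in WT, with replicate 2 well above the other libraries. It did not pass there with spike-in scaling (0.33). RPS17A was higher by 0.61 in nam8D, and by 0.18 with spike-in scaling, which did not pass.

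RPS22A was the gene called lower. It was lower than in starved WT by -1.42 ± 0.167 in hsh49::Q24P and -1.58 ± 0.167 in mud1D (limma adjusted p of 5.54e-07 and 1.16e-07) and stood at -0.30 in nam8D (adjusted p = 0.126). The other genes at the head of the list passed but stayed under the change called. RPS13 was at -0.63 and -0.89 in hsh49::Q24P and mud1D, and RPS9B at -0.64 and -0.83. RPS20, RPS2 and RPS26B stood at -0.66, -0.46 and -0.67 in hsh49::Q24P and at -0.85, -0.69 and -0.85 in mud1D. In each of these mutants 6 of the 8 single-copy genes passed lower and none higher (35.1% and 37% of all features passed lower), and in nam8D none passed lower (32.2%) and 2 higher (27.8%).

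**Figure D3:**
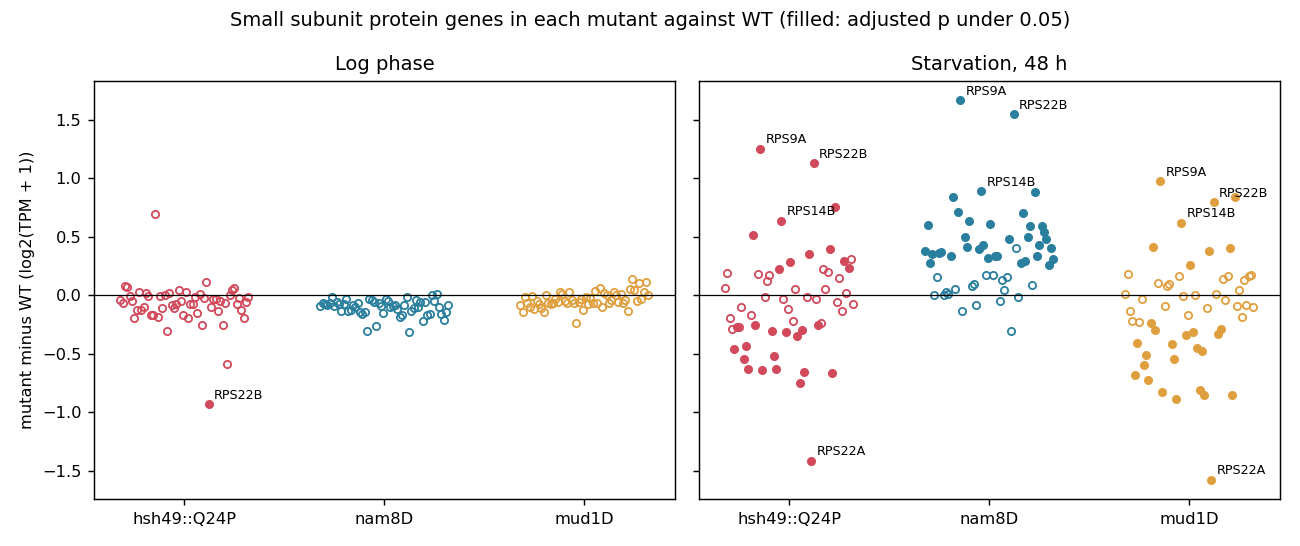
Difference of each of the 56 genes between a mutant and WT, on the log2(TPM + 1) scale, in log phase (left) and starvation (right); each point is a gene, and filled points passed a limma adjusted p under 0.05. In log phase RPS22B in hsh49::Q24P (-0.93) is the filled point, and in starvation RPS9A and RPS22B lie highest and RPS22A lowest in hsh49::Q24P.

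The starvation response itself was compared between each mutant and WT as an interaction term. In hsh49::Q24P it was higher for 9 genes (18% of features) and lower for 8 (28%). In nam8D it was higher for 31 (22.2%) and lower for none (25.2%; 0 at an unadjusted p under 0.05), and in mud1D higher for 7 (19.7%) and lower for 14 (30%), all at a limma adjusted p under 0.05. With median centring the counts were 13 higher and 3 lower, 31 and 0, and 10 and 9, and with spike-in scaling 1 and 34, 2 and 3, and 0 and 22, in the same order. Under spike-in scaling the median feature itself moved to -0.87, -0.75 and -0.66. Relative to it the family median stood at 0.046, 0.397 and -0.0037. Shares of all features passing under that scaling were not taken, so its counts are not read as a result about the family. RPS22B led the higher genes, at 2.06 ± 0.2 in hsh49::Q24P and 1.86 ± 0.2 in nam8D, and stood at 0.87 ± 0.2 in mud1D. RPS22A led the lower ones, at -1.53 ± 0.236 in hsh49::Q24P and -1.58 ± 0.236 in mud1D.

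The balance of the copies was tested as the log2 ratio of copy A to copy B in each library, fitted over all 73 pairs of A and B names in the table, and a pair was called where the adjusted p was under 0.05 and the ratio moved by 0.5 or more, or 1.41-fold. In WT log phase the minor copy made 6.35% of the pair's TPM in RPS9, 6.52% in RPS28 and 7.16% in RPS14, the most uneven pairs, and 49.5% in RPS16, the most even. Between log phase and starvation 9 of 24 pairs were called in WT (43.8% of the 73), 13 for hsh49::Q24P (54.8%), 10 for nam8D (47.9%) and 13 for mud1D (58.9%). These shares lie near or below those over all pairs. The 73 pairs hold these 24 themselves, 33 pairs of large subunit genes and 16 other pairs. Of the 16 other pairs 56.25, 50, 50 and 62.5% were called in WT, hsh49::Q24P, nam8D and mud1D. In all 4 genotypes the ratio of 7 pairs was called, RPS14, RPS21, RPS22, RPS28 and RPS4 toward B and RPS9 and RPS26 toward A. How many of the 73 pairs were called in all 4 was not taken, so the 7 are not read as a result about the family.

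The RPS22 pair moved most in hsh49::Q24P. Copy B made 20.5, 20 and 18.8% of the pair in the WT log libraries and 24.3, 28.6 and 24.4% in WT starvation, a ratio difference of -0.50 ± 0.0738 that is at the size required. In hsh49::Q24P it made 11.3, 10.2 and 10.5% in log phase and 65.4, 68.4 and 67.6% in starvation, a ratio difference of -4.09 ± 0.0738 (limma adjusted p = 1.5e-19). In nam8D it went from 16.6 ± 0.157 to 55.7 ± 1.46% and in mud1D from 18.9 ± 0.146 to 64.5 ± 0.937% (SD, n = 3; -2.65 and -2.95). RPS22B thus made most of the pair in the 9 starved mutant libraries and the smaller part in the other 15. Both copies together fell in all genotypes, from 2072 to 348.3 TPM in WT and from 2015 to 292.4 TPM in hsh49::Q24P.

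In RPS9 the minor copy is A. Copy B made 93.7 ± 0.305% of the pair in WT log phase and 87.4 ± 1.09% in WT starvation (SD, n = 3; ratio difference 1.09 ± 0.109). In starvation it made 65 ± 2.41%, 66.4 ± 2.4% and 66.4 ± 0.21% in hsh49::Q24P, nam8D and mud1D, differences of 2.10, 2.93 and 2.87 from log phase. In RPS14 copy B made 7.16 ± 0.153% in WT log phase and 18.4 ± 0.258% in WT starvation (-1.55 ± 0.0632), and 23.2, 24.1 and 23.6% in the starved mutants (-1.93, -2.24 and -2.16). In RPS28 copy B went from 6.52 to 20.8% in WT (-1.91 ± 0.131), and to 17.8, 22.9 and 18.3% in the mutants. In RPS26 copy B went from 33.2 to 19.5% in WT (1.03 ± 0.118), and to 10.5, 14.7 and 9.21% in the mutants.

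**Figure D4:**
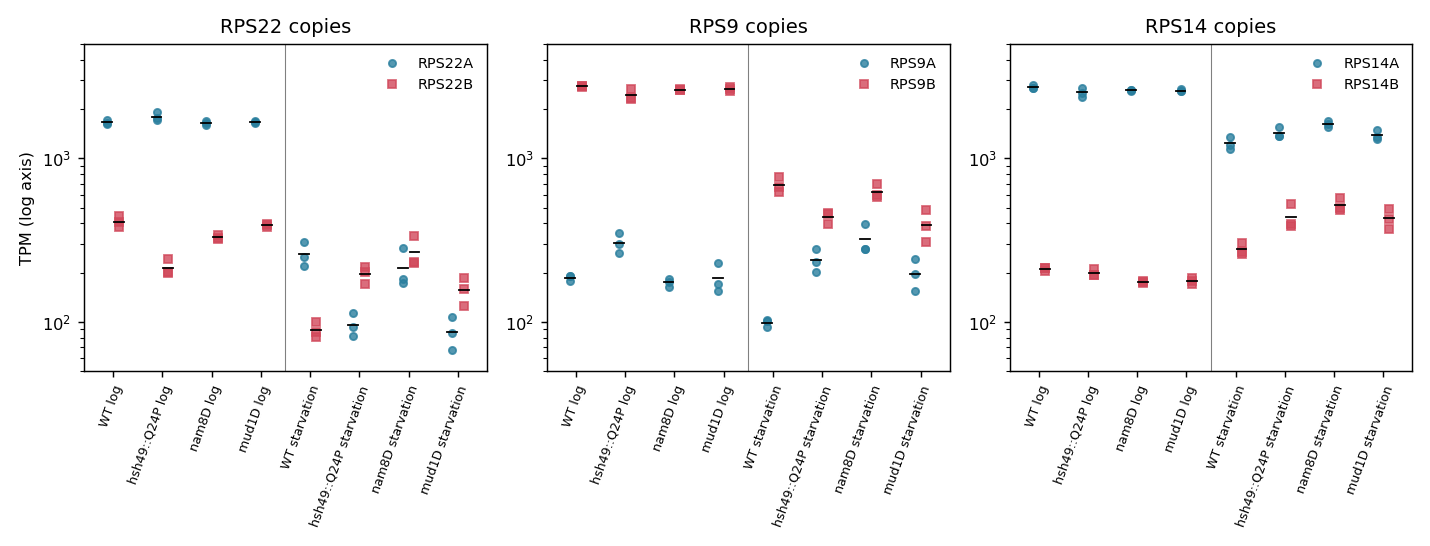
TPM of copies A and B of RPS22, RPS9 and RPS14 in the 24 libraries, on a log axis; points are libraries and lines the mean of 3. RPS22B lies below RPS22A in log phase and in WT starvation, and its mean lies above that of RPS22A in the starved mutants, as in hsh49::Q24P with 196 against 96.3 TPM.

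Against WT in log phase 3 of 24 pairs were called in hsh49::Q24P (8.22% of the 73) and none in nam8D or mud1D (1.37% in each), where limma gave 3 and 3 pairs an unadjusted p under 0.05. The ratio of RPS22 differed by 1.04 ± 0.0738, that of RPS9 by 0.88 ± 0.109 and that of RPS26 by 0.52 ± 0.118 (adjusted p of 2.9e-09, 5.4e-06 and 0.00324), all toward copy A. The RPS26 call was lost without WT log replicate 1 (0.49) or hsh49::Q24P log replicate 2 (0.47), and without the 2 libraries richest in LEU2 RNA (0.51, adjusted p = 0.0759). In nam8D the RPS22 ratio differed by 0.30 ± 0.0738 (adjusted p = 0.0263), under the size required.

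Against WT in starvation 6 pairs were called in hsh49::Q24P (23.3% of the 73), 7 in nam8D (24.7%) and 7 in mud1D (30.1%), comparisons that share the WT libraries. The RPS22 ratio differed by -2.54, -1.85 and -2.38 and the RPS9 ratio by 1.89, 1.80 and 1.80 (largest limma adjusted p = 6.67e-11). RPS26 was at 1.07, 0.50 and 1.26 and RPS27 at 0.81, 0.55 and 0.93, both toward copy A, and RPS7, of protein eS7, at -0.68, -0.50 and -0.65, toward copy B. The nam8D values of RPS26 and RPS7 lie at the size required, and 5 to 8 pairs were called in nam8D with single libraries left out. In starved hsh49::Q24P replicate 2 stood apart. Copy B made 25.3, 37.3 and 29.8% of RPS7 and 61.4, 51.9 and 60.6% of RPS27 in the 3 libraries. RPS14 stayed under the size required, at -0.42, -0.49 and -0.45.

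**Figure D5:**
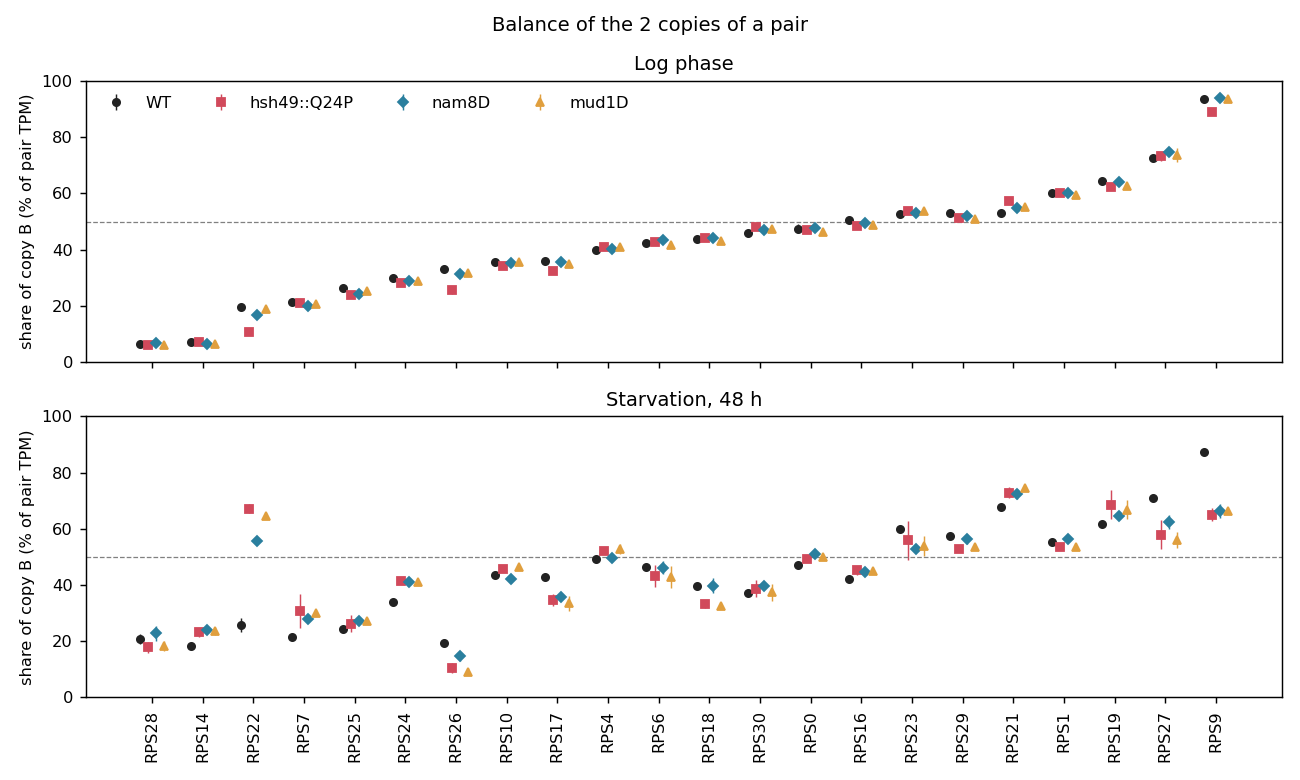
Share of copy B in the TPM of 22 of the 24 pairs, in percent, in log phase (top) and starvation (bottom) for the 4 genotypes; points are means of 3 libraries, bars the SD, and pairs are ordered by the WT log value. In log phase RPS22 of hsh49::Q24P (10.7%) lies below WT (19.8%), and in starvation RPS22 lies at 55.7 to 67.1% in the mutants and at 25.8% in WT.

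Genes that act on these proteins or bind the subunit were read from lists written by hand. Of 12 regulators of ribosomal protein genes, 5 were called higher in starvation in WT, hsh49::Q24P and mud1D and 4 in nam8D, and none lower. Over all features 26.2, 28.5 and 28.2% were called higher in WT, hsh49::Q24P and mud1D and 27.4% in nam8D, so the counts of this short list are read as a description only. CRF1, a corepressor of ribosomal protein genes, went from 2.27 ± 0.143 to 57.1 ± 2.58 TPM in WT (SD, n = 3; 4.15 ± 0.275) and rose by 2.91, 2.40 and 2.68 in the mutants. Its starvation libraries did not overlap those of WT in any mutant, but in hsh49::Q24P they ran from 14.6 to 43.5 TPM. The kinase gene SCH9 rose by 1.29, 1.53, 1.53 and 1.75, the activator gene SFP1 by 1.24 in WT, and the coactivator gene IFH1 by 1.47, 2.10 and 1.77 in the mutants. Against starved WT, CRF1 was lower in nam8D (-1.75) and mud1D (-1.16) and the repressor gene DOT6 higher in both (1.20 and 1.32).

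Of 18 factors that assemble the 40S subunit, 2 were called lower in WT and 5, 2 and 5 in hsh49::Q24P, nam8D and mud1D, and BUD23, a methyltransferase of the 18S rRNA, was the 1 called higher in nam8D (1.06) and in mud1D (1.13). Over all features 9.01, 14.1, 10.3 and 14.9% were called lower in WT, hsh49::Q24P, nam8D and mud1D, so the 2 genes in WT and in nam8D are near the background. The rRNA methyltransferase gene EMG1 fell by 1.85, 2.12, 1.45 and 1.81, and TSR2, the gene of the escort of protein eS26, fell by 1.05 in WT. TSR1 fell by 2.04, 1.03 and 1.89 in the mutants and was called lower in starved hsh49::Q24P and mud1D than in starved WT (-1.24 in each). Of 10 factors that bind the subunit, 2, 3, 2 and 3 were called lower, to be read against the same shares. ASC1, whose protein sits on the head of the subunit, fell from 2866 ± 115 to 358.5 ± 31.6 TPM in WT (-2.998 ± 0.13), and the mutants differed by -2.86, -2.61 and -3.08. STM1, a clamping factor of idle ribosomes, fell by 1.43, 1.55, 1.10 and 1.60, and the start-codon factor gene SUI1 was called higher in nam8D (1.14) and mud1D (1.11).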

How the data were processed

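Expression was read from a table of TPM values per gene and library that the authors deposited under the label coco TPM. Before that, STAR 2.7.9a, Trimmomatic 0.39 and FastQC 0.11.9 were used, per the submitters' processing notes. The genome build, the annotation, the strand counted and the treatment of intronic and multiply mapping reads are not given in the sources used here. TPM keeps no depth, so the depth per library is unknown and no counting interval is given. Per the labels the 3 libraries of a group are biological replicates.

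All 8 groups were fitted together with limma 3.58.1 (R 4.3.3) on log2(TPM + 1), with an intensity trend and no covariate, over 6449 features with at least 1 TPM in at least 3 libraries. They share 1 estimate of the spread per gene, although the starved groups varied more between replicates than the log-phase groups. The 92 spike-in rows, replication origins, repeats and ribosomal DNA spacers were left out. A change of a low gene is understated on this scale. The 13 gene comparisons and the 10 comparisons of pair ratios (73 pairs) were each adjusted by the Benjamini-Hochberg method. Calls needed an adjusted p under 0.05 with a change of 1 or more for a gene and 0.5 or more for a pair. The gene fit was tested on simulated data for hsh49::Q24P against WT in log phase, over 6449 features, where 92% of genes changed by 1 and 74% of those changed by 0.5 passed, 50 genes of each size. Of the genes left unchanged 12 passed. Changes were set only in genes with a mean log2(TPM + 1) above 3. The simulated spread of a gene was equal in every group, so the fit was not tested where groups differ in spread. Introns, splice sites and coding identity were read from the RefSeq annotation with Biopython 1.88, Python 3.11.15, pandas 2.3.3 and numpy 2.4.6, and figures were drawn with matplotlib 3.10.9.

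Genes were named by a rule. It took the RPS22, RPS9 and RPS14 copies, the 3 highest and 3 lowest members in WT log phase, the 5 largest falls and the 3 smallest falls or largest rises per genotype, up to 5 passing members per direction in other comparisons, up to 4 called pairs, and up to 3 called genes per list. The members, lists, rule and alternatives were chosen with earlier results of these data known. Alternatives were a pseudocount of 0.1 or 5, a minimum of 10 TPM or none, median centring, quantile normalization, spike-in scaling, a replicate block, no trend, fits of only the groups compared, each library left out, and a fit without 2 hsh49::Q24P log libraries. Replicate numbers were checked for pairing between log and starvation libraries. The tor1 deletion named in the study's design was not analysed here. Values of a few members are not reported here, and their points are left out of the plots that label genes or pairs, while all 56 genes enter the counts and medians.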

Additional observations from a re-analysis of the deposited data

Results flagged for a closer look

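The starvation response of a small subunit gene was flagged where the interaction term of a mutant against WT passed a limma adjusted p under 0.05, for up to 5 genes per direction and for RPS9B. Groups hold 3 libraries, so single libraries were not screened. Of the 56 genes 17 passed for hsh49::Q24P (9 higher, 8 lower), 31 for nam8D (all higher) and 21 for mud1D (7 higher, 14 lower). Over all features 18% passed higher and 28% lower for hsh49::Q24P, 22.2 and 25.2% for nam8D, and 19.7 and 30% for mud1D. The shares of the 56 genes lay below these in hsh49::Q24P and mud1D, and above for higher genes in nam8D. All 3 comparisons share the WT libraries.

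In each mutant the largest of these values was that of an RPS22 copy. The response of RPS22B, the copy with an intron in its coding region, was higher than in WT by 2.06, 1.86 and 0.87 in hsh49::Q24P, nam8D and mud1D on the log2 scale. The response of RPS22A was lower, at -1.53 in hsh49::Q24P and -1.58 in mud1D. In mud1D the RPS22B value was 0.29 with spike-in scaling and did not pass. The response of RPS9A was higher by 1.77 in nam8D and 1.01 in mud1D, where it was 0.43 with spike-in scaling and did not pass, while that of RPS9B was lower, at -0.45 in hsh49::Q24P and -0.77 in mud1D. The first of these RPS9B values lost the threshold without any of 6 single libraries.

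RPS14B was higher by 0.72, 1.15 and 0.86 in the same mutants in turn, and its partner RPS14A by 0.33 in hsh49::Q24P. RPS26A was higher by 0.46, 0.65 and 0.45 in hsh49::Q24P, nam8D and mud1D. RPS30A was higher by 0.42 in hsh49::Q24P, RPS7B by 0.97 in nam8D and RPS27A by 0.78 in mud1D. With spike-in scaling none of the RPS14B, RPS14A, RPS26A, RPS30A, RPS7B and RPS27A values given here passed. Among genes that responded more strongly, RPS20 stood at -0.67 in hsh49::Q24P and -0.92 in mud1D, RPS13 at -0.55 and -0.84, RPS12 at -0.54 in hsh49::Q24P, and RPS2 at -0.59 in mud1D. With median centring the hsh49::Q24P values of RPS12, RPS13 and RPS9B were -0.39, -0.40 and -0.31 and did not pass (limma adjusted p of 0.0516, 0.0717 and 0.2003). The fit without the 2 hsh49::Q24P log libraries richest in LEU2 RNA left RPS13, RPS20 and RPS9B past no threshold in hsh49::Q24P, at -0.51, -0.59 and -0.40.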

How the results depend on the processing

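Depth is unknown, and which values can be resolved is set by the spread between replicates, which was widest in starved mud1D. Pseudocounts, filters on low values and the trend left the counts and medians within their limits, except that a pseudocount of 5 left 0 genes called higher in the mud1D interaction. In the starvation response the family median under median centring, quantile normalization and spike-in scaling was -1.76, -1.02 and -1.58 in WT, -1.60, -1.07 and -2.38 in hsh49::Q24P, -1.24, -0.58 and -1.91 in nam8D and -1.65, -1.20 and -2.19 in mud1D. In nam8D 40, 13 and 51 genes were called lower and 1, 1 and 0 higher, and 0 were called higher in hsh49::Q24P and in mud1D under each. With spike-in scaling the median feature itself moved from 0.47 to 0.20 in WT, and to -0.63, -0.55 and -0.43 in hsh49::Q24P, nam8D and mud1D. In log phase the medians against WT turned to 0.33, 0.27 and 0.32 (hsh49::Q24P, nam8D, mud1D) with spike-in scaling. The median feature stood at 0.40, 0.34 and 0.38 there. In a fit of only the groups compared 3 genes passed in hsh49::Q24P log phase and 12 in nam8D log phase. The share of all features passing in that fit was not taken. Without the 2 libraries richest in LEU2 RNA the RPS22B difference in hsh49::Q24P log phase was -1.01.

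Against starved WT, spike-in scaling gave 0 genes called higher and 7 lower in hsh49::Q24P and 6 lower in mud1D, with medians of -0.49, -0.31 and -0.089 in hsh49::Q24P, mud1D and nam8D. The median feature stood at -0.48, -0.29 and -0.42 under that scaling, in the same order. Median centring turned the medians of hsh49::Q24P and mud1D to 0.044 and 0.0023 and called 1 gene higher in mud1D, and quantile normalization called 2 lower there. For the interactions, spike-in scaling called 18 lower in hsh49::Q24P (median -0.82), 1 higher and 1 lower in nam8D (-0.35) and 0 higher and 10 lower in mud1D (-0.66). The median feature stood at -0.87, -0.75 and -0.66 there. Median centring gave medians of 0.14 in hsh49::Q24P and 0.057 in mud1D, with 2 called higher in mud1D, and quantile normalization 0 higher and 3 lower in mud1D. The hsh49::Q24P interaction median was 0.054 without the 2 libraries. The family's share was 12.05% in mud1D and 11.5% in nam8D log phase of a total without spike-in, ribosomal DNA and mitochondrial rows.

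Single genes turned under spike-in scaling as follows. RPS14B was at -0.0013 in the hsh49::Q24P starvation response and -0.10 in its interaction, where RPS14A was at -0.49 and RPS30A at -0.40. RPS26A was at -0.029 in hsh49::Q24P against starved WT and at -0.35, -0.13 and -0.14 in the hsh49::Q24P, mud1D and nam8D interactions. RPS28B was at -0.55 and -0.38 in starved hsh49::Q24P and mud1D against log phase and RPS9A at -0.23 in nam8D. In the WT starvation response RPS14B turned to -0.077 with median centring and -0.0012 with quantile normalization, and RPS30A to 0.20 with the latter. The cause of these changes was not tested.

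Leaving out single libraries moved the median against starved WT from -0.13 to 0.025 in hsh49::Q24P (turned without its starvation replicate 3) and from -0.22 to 0.025 in mud1D (turned without its starvation replicate 1), where 0 to 2 genes were called higher (2 without starvation replicate 1, 1 without WT starvation replicate 3) and 1 to 4 lower (4 without starvation replicate 3). The mud1D starvation median ran from -1.44 to -1.18, and hsh49::Q24P had 0 to 1 gene called higher, 0 without its starvation replicate 2. Interaction medians ran from -0.064 to 0.11 in hsh49::Q24P and from -0.17 to 0.069 in mud1D, where 0 to 2 genes were called higher and 1 to 2 lower. No count of called pairs moved by over 1.5 times under the alternatives tried.

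With the replicate number as a block, RPS22B in hsh49::Q24P log phase stood at -0.93 (limma adjusted p = 0.00298), and no count or median changed its side. Same-numbered log and starvation libraries correlated between -0.17 and 0.20, above 0.1 in 3 of 12 pairs, and 6 of 12 log libraries were closest to their own number, so the numbers were not taken to pair the samples.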
